A study of Mus musculus with 6 samples.

Results

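Il12a, Il12b, Il23a, Ebi3, Il27, Il10, Il6, Il15 and Tnf encode cytokines and cytokine subunits that dendritic cells (DCs) and other myeloid cells use to instruct T cells, or to restrain them. They were chosen by name, for what their proteins do, and are 9 of 31063 features in the DC files and 9 of 31065 in the wound files. IL-12 pairs p35 (Il12a) with p40 (Il12b) and IL-23 pairs p19 (Il23a) with p40, whereas IL-27 pairs p28 (Il27) with Ebi3 and IL-35 pairs p35 with Ebi3. IL-12 favors interferon-γ-producing T cells and IL-23 sustains T cells that make IL-17 and IL-22, while IL-27, IL-35 and IL-10 limit such responses. IL-15 supports NK cells and memory CD8 T cells, and IL-6 and TNF are early inflammatory cytokines of many cell types. Mature DCs become sources of IL-12 and IL-15 as they migrate to lymph nodes, whereas active vitamin D (VD3) is used in culture to obtain tolerogenic DCs.

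The study used 10x single-cell RNA-seq on bone marrow-derived DCs and on mouse skin wounds that received them. DCs were grown with GM-CSF from wild-type C57BL/6 mice and suspension cells were taken: untreated DCs, DCs given 1e-06 M 1,25-dihydroxy-cholecalciferol for 24 h from culture day 7 (VD3 DCs), and DCs nucleofected with Cas9 and 3 guides against Ndrg2 (Ndrg2-KO DCs). Splinted excisional wounds of 6-week-old mice were taken at day 10, with 5 mice per group. They had received pullulan-collagen hydrogels with control DCs, with Ndrg2-KO DCs, or without cells (blank). The study's text does not state whether the tissue was pooled, nor the strain of these mice. It wounded wild-type C57BL/6 and diabetic db/db mice, and day 10 was chosen from healing curves of wild-type wounds. The control DCs in wounds are untreated by label but nucleofected with non-targeting guides by the study's methods, and the untreated DC library was not nucleofected, so nucleofection and Ndrg2 loss cannot be told apart among the DC libraries. The deposited text also speaks of sorted reporter cells from joined mice, whereas the methods describe whole wound tissue, and the EGFP and tdTomato features of the wound files held 0 UMIs.

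Each condition was a single library, so no test was made, cells were not treated as replicates, and every 95% interval covers counting error only. Cells with at least 300 genes, under 100000 unique molecular identifiers (UMIs) and under 10% mitochondrial UMIs were kept. Among the DCs these were 7257 untreated, 8825 VD3 and 7969 Ndrg2-KO cells, with median depths of 15804, 12089 and 16316 UMIs. The wound libraries were shallower, at 10795 UMIs in 1948 cells with control DCs, 4415 in 5681 cells with Ndrg2-KO DCs and 5603 in 3403 blank cells. Any pair of libraries shared 1 to 19 cell barcodes. Levels are summed UMIs of a gene per 1000000 UMIs of the library (CPM).

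Ndrg2 itself stood at 4.62 CPM in untreated, 1.42 in VD3 and 0.884 in Ndrg2-KO DCs. It was thus lower in both treated libraries, with log2 ratios to untreated DCs of −1.71 under VD3 and −2.39 after editing. Cyp24a1, the vitamin D target gene, had 1 UMI in untreated DCs, 36662 UMIs in VD3 DCs (315 CPM) and 0 in Ndrg2-KO DCs, where fewer than 3 UMIs (0.0209 CPM) cannot be told from none. Cyp24a1 was thus high in the library labelled VD3 and in no other DC library.

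A member was compared between libraries where both together held at least 50 of its UMIs, and a difference of 2-fold or more was counted. In VD3 against untreated DCs 1 of 6 members was higher, Il15, and none was lower, where 4.18% of 13113 genes were higher and 7.44% lower. In Ndrg2-KO against untreated DCs 2 of 6 members were lower, Il6 and Tnf, and none was higher, against 9.28% of 13329 genes lower and 10.2% higher. Ndrg2-KO against VD3 DCs gave 4 of 6 lower, Il12b, Il6, Il15 and Tnf, and none higher, against 9.21% of 13235 genes lower and 13% higher. With each cell weighted equally, no member passed for VD3 against untreated DCs, and only 1, Tnf, for Ndrg2-KO against VD3 DCs. The 3 DC comparisons share libraries, so that a member high in VD3 DCs counts toward more than 1 of them.

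In the wounds all 9 members could be compared. Wounds with Ndrg2-KO DCs had 6 of 9 higher than wounds with control DCs (Il12a, Il12b, Il23a, Il27, Il15 and Tnf) and none lower, where 4.39% of 13358 genes were higher and 6.22% lower. Blank wounds had 4 of 9 higher (Il12a, Il12b, Il23a and Tnf) and none lower, where 3.71% of 13137 genes were higher and 3.89% lower. With each cell weighted equally the split was 4 higher and 1 lower (Il6) with Ndrg2-KO DCs, and 2 higher and 1 lower (Il6) in blank wounds. Both comparisons share the library with control DCs. The median log2 ratio of the members was 0.19 for VD3 against untreated DCs (all genes −0.08), −0.42 for Ndrg2-KO against untreated (all genes −0.06) and −1.18 for Ndrg2-KO against VD3 (all genes 0.00). It was 1.33 with Ndrg2-KO DCs in wounds (all genes −0.15) and 0.93 in blank wounds (all genes −0.04). Over well-counted genes the median log2 ratio of wounds with Ndrg2-KO DCs was −0.14, so that scaling by the median of ratios gave higher log2 ratios, as for Tnf (2.44 in place of 2.29), and the other comparisons moved by less.

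**Figure D1:**
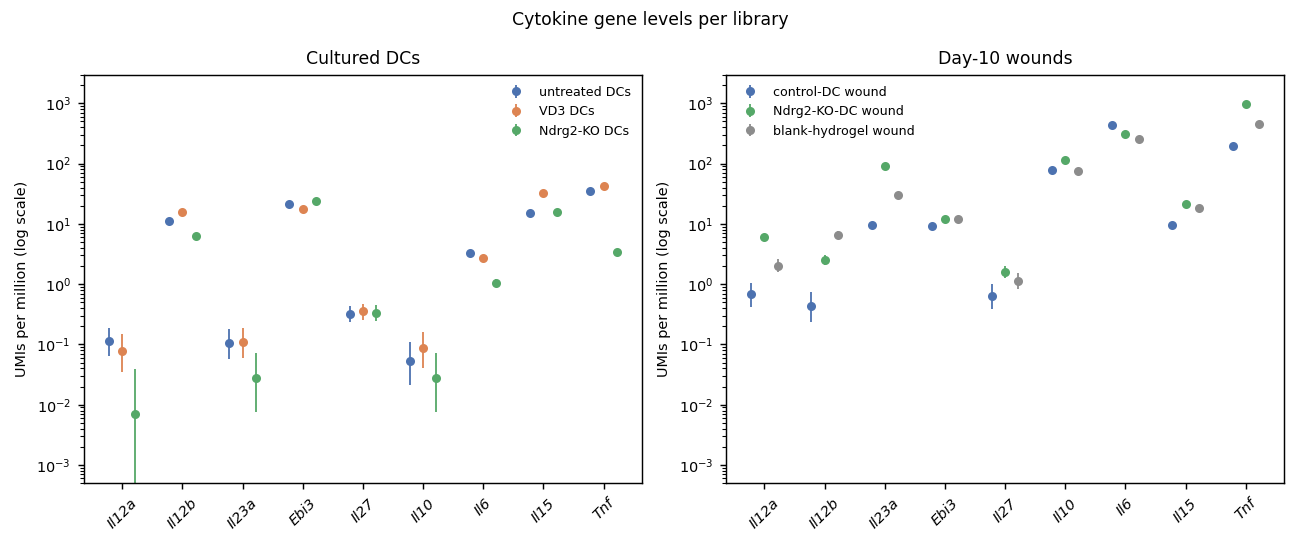
Level of each member in each library in CPM (logarithmic axis), with bars for the 95% counting interval. Tnf fell from 35.1 CPM in untreated to 3.46 CPM in Ndrg2-KO DCs, and Il23a stood at 9.60, 91.2 and 30.1 CPM in wounds with control DCs, with Ndrg2-KO DCs and blank.

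Cells were clustered by their variable genes, with the members left out, and clusters were given a cell type only where marker genes passed. In the DCs, mature DC-like cells formed mostly separate clusters by library, cluster 2 in untreated, cluster 1 in VD3 and cluster 6 in Ndrg2-KO DCs, beside the shallow cluster 13. Ccr7, Ccl22 and Il4i1 marked clusters 1, 2 and 6, while Fscn1 passed in clusters 1, 2 and 13 but not in cluster 6, whose leading genes also held Klrd1 and Klrk1. They made up 37.4% of untreated (2715 cells), 39.5% of VD3 (3487 cells) and 26.5% of Ndrg2-KO cells (2109 cells). Since clusters 1, 2 and 6 each came mostly from 1 library, state and library cannot be fully told apart. The premature DC-like cluster 0 (Csf1r, Ccr2, Lyz2, Fn1) was almost all from Ndrg2-KO DCs, with 3607 of 3613 cells. Among cells with at least 2000 UMIs, those with at least 3 of 8 premature DC markers were not confined to that library. They made up 39.5% of untreated, 10.4% of VD3 and 72.8% of Ndrg2-KO cells. Cluster 4, with Stfa2, Csf3r, Ltf and Ngp, stayed unnamed and held 927 untreated and 1114 VD3 cells but only 38 Ndrg2-KO cells.

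Il12b, the p40 subunit of IL-12 and IL-23, was carried by 1500 UMIs in untreated, 1832 in VD3 and 887 in Ndrg2-KO DCs. Its level was 11.3 CPM [10.7 to 11.9] in untreated, 15.7 [15.0 to 16.5] in VD3 and 6.18 [5.78 to 6.60] in Ndrg2-KO DCs. It was thus lowest in Ndrg2-KO DCs, and no intervals overlapped. The log2 ratio of VD3 to untreated DCs was 0.48 [0.38 to 0.57], but −0.21 when each cell was given the same weight, so no order of untreated and VD3 DCs is read for Il12b. Ndrg2-KO DCs were below untreated ones, at −0.87 [−0.99 to −0.75], and by more (−1.32) among cells with under 5% mitochondrial UMIs. Against VD3 DCs the log2 ratio was −1.35 [−1.47 to −1.23], a 2.55-fold fall, which came to −0.57 with each cell weighted equally.

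Most Il12b came from mature DC-like cells, with 89.8% of its UMIs in untreated, 85.0% in VD3 and 77.7% in Ndrg2-KO DCs (85.2% over the 3 libraries, and 56.7% at resolution 1.0). Within this state the level was 32.3 CPM [30.6 to 34.0] in untreated, 30.9 [29.4 to 32.5] in VD3 and 27.1 [25.1 to 29.2] in Ndrg2-KO cells. The levels of untreated and VD3 cells overlapped, and Ndrg2-KO cells were slightly lower than both. Ndrg2-KO mature cells stood at −0.19 [−0.32 to −0.06] to those of VD3 DCs in log2, against −1.35 over all cells. The difference in Il12b between these libraries was therefore far smaller among mature DC-like cells, of which Ndrg2-KO DCs had fewer. A grouping by markers was made among cells with at least 2000 UMIs. There, cells with at least 3 of 8 mature DC markers held 99% of Il12b UMIs in untreated, 96.5% in VD3 and 98.4% in Ndrg2-KO DCs, and made up 45.6%, 52.0% and 33.9% of these deeper cells.

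Il12b was unevenly spread even within the mature state. UMIs of Il12b were seen in 489 untreated (18.0%), 526 VD3 (15.1%) and 329 Ndrg2-KO (15.6%) mature cells, at median depths of 14359, 13373 and 10696 UMIs. Cells with at least 5 Il12b UMIs were few, 87, 98 and 27 in the same order, yet held 48.6%, 52.3% and 28.0% of its UMIs in that state. Such cells were thus fewest in Ndrg2-KO DCs, whose mature cells were also the fewest and the shallowest. No order of strong producers is therefore read. The 160 Ndrg2-KO cells that joined the mostly untreated cluster 2 had Il12b at 105 CPM, while the Ndrg2-KO cells of cluster 6 had 22.5 CPM.

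Detection was compared after every DC was thinned to 2000 UMIs, which left out 472 untreated, 1149 VD3 and 134 Ndrg2-KO cells that had fewer. At this depth Il12b was found in 6.22% of untreated, 5.18% of VD3 and 5.29% of Ndrg2-KO mature DC-like cells. As references for stray RNA, it was found in 0.152% of untreated cells and 0 of 814 VD3 cells of cluster 4, and in 0 of 1105 untreated cells of cluster 9, the latter pair at median depths of 2853.5 and 20463.5 UMIs. Clusters 5 and 8 had it in 0.420% and 0.450% of cells over the 3 libraries. Of premature DC-like cells from Ndrg2-KO DCs, 0.0556% of 3594 had it, at a median depth of 18866 UMIs. Across all cells the thinned shares were 2.61%, 2.55% and 1.63% in untreated, VD3 and Ndrg2-KO DCs, and 7.59%, 7.01% and 5.23% without thinning. Il12b-positive cells had the migration receptor gene Ccr7 in 88.7% of cases in untreated, 88.8% in VD3 and 75.8% in Ndrg2-KO DCs, where other cells had it in 36.9%, 44.6% and 23.6%. The genes most like Il12b across 26 cluster-by-library units were Tmem150c (Pearson r 0.945), Tmod2 (0.944) and Efna2 (0.941). Such units share libraries and differ in depth, so the correlations are a description only.

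**Figure D2:**
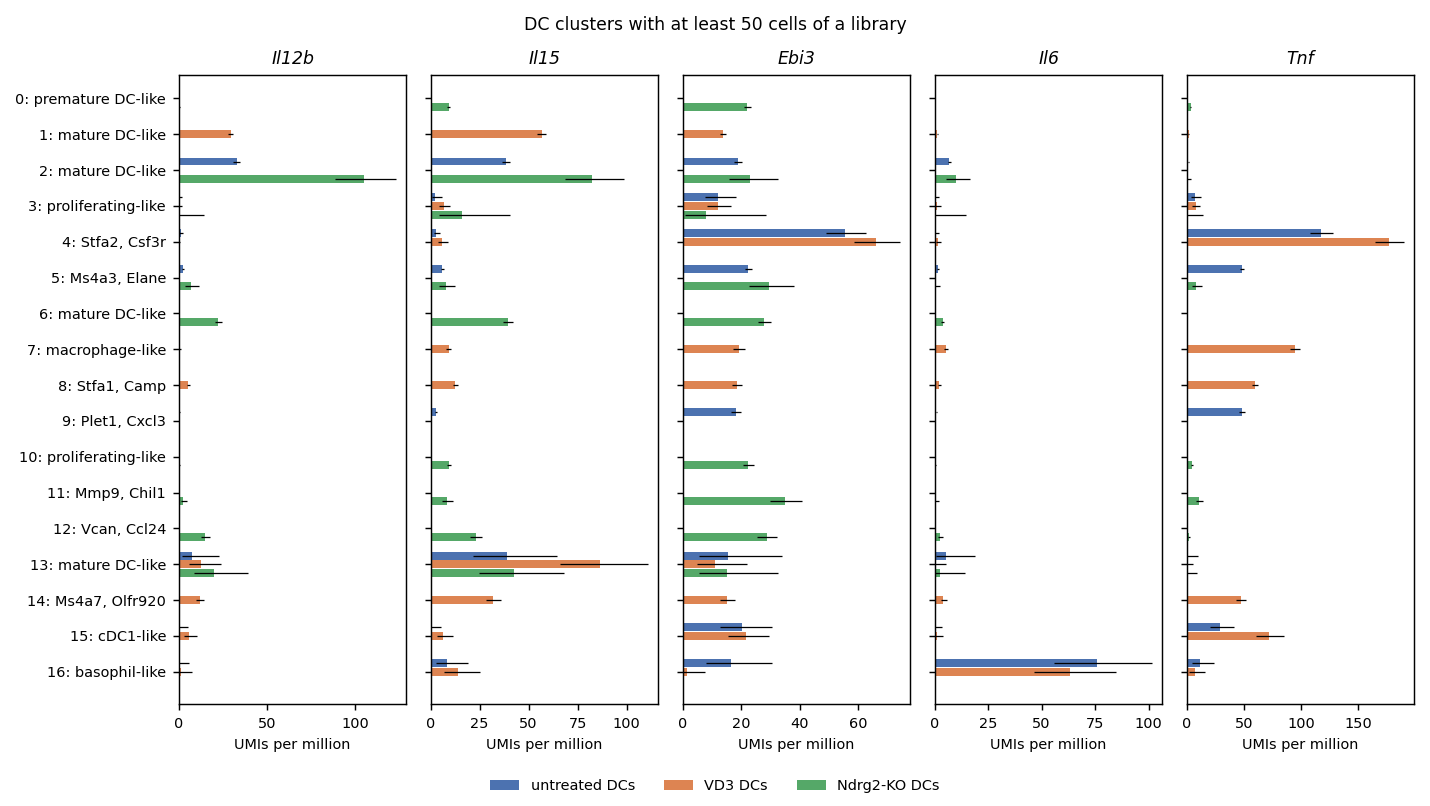
Levels in CPM of Il12b, Il15, Ebi3, Il6 and Tnf in each DC cluster, with bars by library where it had at least 50 cells. Il12b and Il15 stood highest in mature DC-like clusters, while Tnf was high in cluster 4, with 118 CPM for untreated and 177 CPM for VD3 DCs.

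In the wounds Il12b was rare, with 13 UMIs with control DCs, 124 with Ndrg2-KO DCs and 230 in blank wounds. These came to 0.438 CPM [0.233 to 0.749], 2.52 [2.09 to 3.0] and 6.59 [5.77 to 7.50]. Il12b was therefore highest in blank wounds and lowest with control DCs, with no overlap. The log2 ratio to wounds with control DCs was 2.52 [1.70 to 3.47] with Ndrg2-KO DCs, or 5.75-fold. In blank wounds it was 3.91 [3.11 to 4.84], or 15.0-fold.

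These ratios rested on a handful of cells. Only 5 cells with control DCs, 11 with Ndrg2-KO DCs and 10 in blank wounds had any Il12b UMI, and the top 3 cells held 84.6%, 80.6% and 80.0% of its UMIs. Mature DC-like cells (cluster 7, where Il12b was also among the top genes) held 92.3%, 99.2% and 99.1% of the UMIs. Among these cells the positive share was 10.3% [2.87 to 24.2] with control DCs, 12.0% [5.93 to 21.0] with Ndrg2-KO DCs and 10.4% [4.59 to 19.4] in blank wounds. These intervals are wide and overlapped, so no order is read from the shares. The cell with the most Il12b held 5, 42 and 76 UMIs. Wound genes most like Il12b over 27 units included Apol7c (r 0.930) and Il4i1 (0.894), both listed with it among the top genes of cluster 7.

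Il12a, the p35 subunit that makes p40 into IL-12, was nearly silent in DCs, with 15 UMIs in untreated, 9 in VD3 and 1 in Ndrg2-KO DCs (0.113, 0.0773 and 0.00696 CPM). Neighboring intervals overlapped, and it was not compared between DC libraries. In wounds it stood at 0.674 CPM [0.412 to 1.04] with control DCs, 6.01 [5.35 to 6.74] with Ndrg2-KO DCs and 2.03 [1.59 to 2.57] in blank wounds. It was highest with Ndrg2-KO DCs and lowest with control DCs, without overlap. The log2 ratio to control DCs was 3.16 [2.50 to 3.89] with Ndrg2-KO DCs (8.92-fold). That of blank wounds was 1.59 [0.86 to 2.39] (3.02-fold), and 0.74 with each cell weighted equally.

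Of the wound clusters, neutrophil-like cells (cluster 0: S100a8, S100a9, Csf3r, Retnlg) held most Il12a, with 70.0% of its UMIs with control DCs, 57.8% with Ndrg2-KO DCs and 64.8% in blank wounds. Their share over the 3 wound libraries, 59.7% of Il12a UMIs, came to 43.2% at resolution 1.0 and to 32.3% for an unnamed leading cluster with 30 components. Their Il12a level was 8.57, 17.5 and 7.79 CPM in the same order. Cluster 2, which was marked by Mmp12 and Mmp13 and stayed unnamed, had 0.857, 12.6 and 1.57 CPM. With Ndrg2-KO DCs the Il12a level was therefore higher in each of these cell groups than in blank wounds or with control DCs. The level of neutrophil-like cells with control DCs rested on 14 UMIs. Their thinned shares overlapped, at 1.55% [0.623 to 3.16] with control DCs and 1.75% [1.30 to 2.30] with Ndrg2-KO DCs. In the wounds neutrophil-like cells thus held the largest part of Il12a at these settings, and mature DC-like cells nearly all of its partner Il12b.

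Il23a, the p19 subunit of IL-23, was likewise near the floor in DCs, with 14 UMIs in untreated, 13 in VD3 and 4 in Ndrg2-KO DCs (0.106, 0.112 and 0.0278 CPM). All neighboring intervals overlapped. In wounds it reached 9.60 CPM [8.52 to 10.8] with control DCs, 91.2 [88.6 to 94.0] with Ndrg2-KO DCs and 30.1 [28.3 to 32.0] in blank wounds. The wound levels ran from control DCs over blank to Ndrg2-KO DCs with no overlap. The log2 ratio with Ndrg2-KO DCs was 3.25 [3.08 to 3.43], a 9.50-fold difference. Blank wounds stood at 1.65 [1.46 to 1.84] (3.14-fold), and at 0.71 with each cell weighted equally.

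Neutrophil-like cells held 87.4% of Il23a UMIs with control DCs, 80.6% with Ndrg2-KO DCs and 85.8% in blank wounds. Over the 3 wound libraries their share was 81.9%, but the leading cluster held 45.7% at resolution 1.0, and with 30 components (67.7%) or without high doublet scores (76.7%) it was not named. Within them Il23a stood at 153 CPM [134 to 173] with control DCs, 371 [359 to 383] with Ndrg2-KO DCs and 153 [143 to 163] in blank wounds. Neutrophil-like cells of blank wounds and of wounds with control DCs were thus level, while those with Ndrg2-KO DCs were higher. These cells made up 23.6%, 51.0% and 45.9% of the libraries. Compared with control DCs, their share and their Il23a level were thus both higher with Ndrg2-KO DCs. In blank wounds only their share was higher. After thinning to 1000 UMIs, which left out 25, 95 and 65 cells, 6.18%, 13.5% and 6.65% of neutrophil-like cells had Il23a. As a reference for stray RNA, fibroblast-like cells had Il23a in 0.194%, 0.726% and 0% of thinned cells, at 0.753, 3.1 and 2.23 CPM.

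Cluster 2 separated the wounds more sharply, with Il23a at 1.71 CPM with control DCs, 61.1 with Ndrg2-KO DCs and 1.92 in blank wounds. Monocyte-like cells (Ly6c2, Ccr2, Plac8, Chil3), whose leading genes also held the antigen presentation genes H2-Aa, H2-Ab1 and Cd74, went from 0.98 CPM with control DCs to 33.8 with Ndrg2-KO DCs and 15.6 in blank wounds. Neutrophil markers also differed within the monocyte-like cells, at 2089, 7911 and 3366 CPM (against 139843, 117081 and 112009 CPM in neutrophil-like cells), and the part of stray neutrophil RNA in their Il23a was not tested. Over all cells the thinned shares were 1.61%, 7.75% and 3.36%, and the full shares 3.70%, 13.9% and 7.17%. Il23a-positive cells also had Tnf in 71.0% (of 31 cells), 90.1% (of 433) and 83.9% (of 112) of cases, where other cells had it in 15.9%, 32.0% and 26.5%. The wound genes most like Il23a were Chil1 (r 0.899), Upp1 (0.895) and Mrgpra2b (0.893).

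Neutrophil markers rose along with these members. All 7 neutrophil markers were at least 2-fold higher with Ndrg2-KO DCs and 6 of 7 in blank wounds, beside 4.39% and 3.71% of all genes. The markers summed to 8230 CPM with control DCs, 26355 with Ndrg2-KO DCs and 20455 in blank wounds, with S100a9 the most abundant. In an analysis chosen after seeing the data, the neutrophil-like cluster was left out. Il23a then stood at 1.28, 22.1 and 5.14 CPM, with log2 ratios of 4.10 for Ndrg2-KO DCs and 2.0 for blank wounds. Il12a stood at 0.214, 3.17 and 0.862 CPM, with log2 ratios of 3.89 and 2.01. The remaining clusters still held more neutrophil marker RNA with Ndrg2-KO than with control DCs (5013 against 263 CPM in cluster 2, and 6756 against 687 CPM in macrophage-like cells), whose part in these differences was not tested.

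Ebi3, the partner of p28 in IL-27 and of p35 in IL-35, was present in every library. Its DC level was 21.6 CPM [20.9 to 22.5] in untreated, 17.9 [17.2 to 18.7] in VD3 and 24 [23.2 to 24.9] in Ndrg2-KO DCs. The order ran from VD3 over untreated to Ndrg2-KO DCs without overlap, although every difference was under 2-fold. The log2 ratio was −0.27 [−0.35 to −0.19] for VD3 and 0.15 [0.08 to 0.22] for Ndrg2-KO against untreated DCs, the latter −0.05 with each cell weighted equally. Ndrg2-KO against VD3 DCs gave 0.42 [0.34 to 0.50]. Among mature DC-like cells the spread was wider, at 19.0 CPM in untreated, 13.8 in VD3 and 27.3 in Ndrg2-KO cells, with a log2 ratio of 0.99 between the last pair.

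Unlike Il12b, Ebi3 was not bound to the mature state. Cluster 4, with neutrophil genes, had Ebi3 at 55.6 CPM among untreated and at 66.1 CPM among VD3 DCs, and the Ndrg2-KO cluster 11 (Mmp9, Chil1) had 35.1 CPM. Thinned shares over all cells were 4.04% in untreated, 3.96% in VD3 and 4.86% in Ndrg2-KO DCs (28.3%, 18.5% and 32.3% at full depth). In VD3 DCs 45.7% of Ebi3-positive cells had S100a8, where 21.9% of other cells did.

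In wounds Ebi3 was at 9.13 CPM [8.08 to 10.3] with control DCs, 12.1 [11.2 to 13.2] with Ndrg2-KO DCs and 12.0 [10.9 to 13.2] in blank wounds. The latter pair overlapped, and both were above wounds with control DCs. Log2 ratios were small, 0.41 [0.20 to 0.62] with Ndrg2-KO DCs and 0.40 [0.17 to 0.62] in blank wounds, and without neutrophil-like cells they came to 0.10 and −0.09. Neutrophil-like cells had Ebi3 at 23.3, 25.3 and 32.7 CPM and macrophage-like cells (C1qa, C1qb, Mrc1, Adgre1) at 29.8, 23.8 and 22.8 CPM, against 0.188, 0.607 and 0.268 CPM in fibroblast-like cells.

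Il27, the p28 subunit, was sparse throughout, with 43 UMIs in untreated, 41 in VD3 and 48 in Ndrg2-KO DCs (0.324, 0.352 and 0.334 CPM). All intervals overlapped, and the log2 ratio of VD3 to untreated DCs was 0.12 [−0.54 to 0.77]. In wounds Il27 was at 0.640 CPM [0.385 to 1.0] with control DCs, 1.60 [1.27 to 2.0] with Ndrg2-KO DCs and 1.15 [0.819 to 1.56] in blank wounds. Ordered by level, blank wounds lay between the others and overlapped both, whereas wounds with control and with Ndrg2-KO DCs did not overlap. The log2 ratio was 1.33 [0.59 to 2.13] with Ndrg2-KO DCs (2.51-fold, and 0.63 with each cell weighted equally) and 0.84 [0.02 to 1.71] in blank wounds. Without neutrophil-like cells the ratio of blank wounds was 0.05, with 1.43 for Ndrg2-KO DCs. Of 79 Il27 UMIs in wounds with Ndrg2-KO DCs, 29 were in cluster 2 (3.58 CPM) and 26 in neutrophil-like cells (2.66 CPM).

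Whether the subunits of a heterodimer met in the same cell depended on depth. After thinning, which left Il27 in 1 to 15 cells per library, no cell of any library held both subunit genes of IL-12, IL-27 or IL-35, and 1 cell, in a wound with Ndrg2-KO DCs, held both genes of IL-23. At full depth Ebi3 was found in 20 of 42 untreated, 10 of 40 VD3 and 18 of 47 Ndrg2-KO DCs with Il27 (47.6%, 25% and 38.3%), where 28.3%, 18.5% and 32.3% of all cells had it. The same pair met in 5, 12 and 6 cells of wounds with control DCs, with Ndrg2-KO DCs and blank. Il12a and Ebi3 met in 3, 21 and 13 wound cells, of 17, 196 and 59 with Il12a. Il12a and Il12b met in 1 wound cell with Ndrg2-KO DCs and in no other cell. With such low counts the absence of a partner in a cell cannot be told from a missed transcript, and protein was not analysed here.

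Il10, the anti-inflammatory cytokine often sought in tolerogenic DCs, was near absent from all DCs, with 7 UMIs in untreated, 10 in VD3 and 4 in Ndrg2-KO DCs (0.0528, 0.0859 and 0.0278 CPM). All neighboring intervals overlapped, and no order of the DC libraries is read for Il10. In wounds it was far from silent, at 77.2 CPM [74.1 to 80.4] with control DCs, 114 [111 to 117] with Ndrg2-KO DCs and 75.3 [72.4 to 78.2] in blank wounds. Blank wounds and wounds with control DCs overlapped, and wounds with Ndrg2-KO DCs were above them. Their log2 ratio was 0.56 [0.49 to 0.63], but −0.35 with each cell weighted equally. Without neutrophil-like cells it was 0.77. The thinned shares were 4.99%, 4.62% and 4.13% of cells (13.8%, 11.9% and 11.8% at full depth) and did not follow the CPM, so no order is read for Il10 with Ndrg2-KO DCs. Blank wounds stood at −0.04 [−0.12 to 0.05], and at 0.12 without neutrophil-like cells.

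Macrophage-like cells were the main wound source of Il10, with 45.9% of its UMIs with control DCs, 43.2% with Ndrg2-KO DCs and 51.0% in blank wounds (45.7% over the 3 libraries, and 29.7% at resolution 1.0). Il10 was among the top genes of that cluster, at 392, 534 and 425 CPM. Monocyte-like cells had Il10 at 263 CPM with control DCs, 319 with Ndrg2-KO DCs and 162 in blank wounds. Cluster 6 (Cd209f, Lyve1, with all 8 macrophage markers) had 212, 179 and 226 CPM. Cluster 2 went from 9.86 CPM with control DCs to 112 with Ndrg2-KO DCs and 16.1 in blank wounds, where 0.637%, 5.71% and 3.20% of thinned cells had Il10. Of the macrophage markers 0 of 8 passed 2-fold in both comparisons, with sums of 8674, 8152 and 6873 CPM (Apoe the most abundant). Of all genes 4.39% were higher and 6.22% lower with Ndrg2-KO DCs, and 3.71% and 3.89% in blank wounds. Siglec1 (r 0.889) and Ccl12 (0.889) were the wound genes most like Il10.

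**Figure D3:**
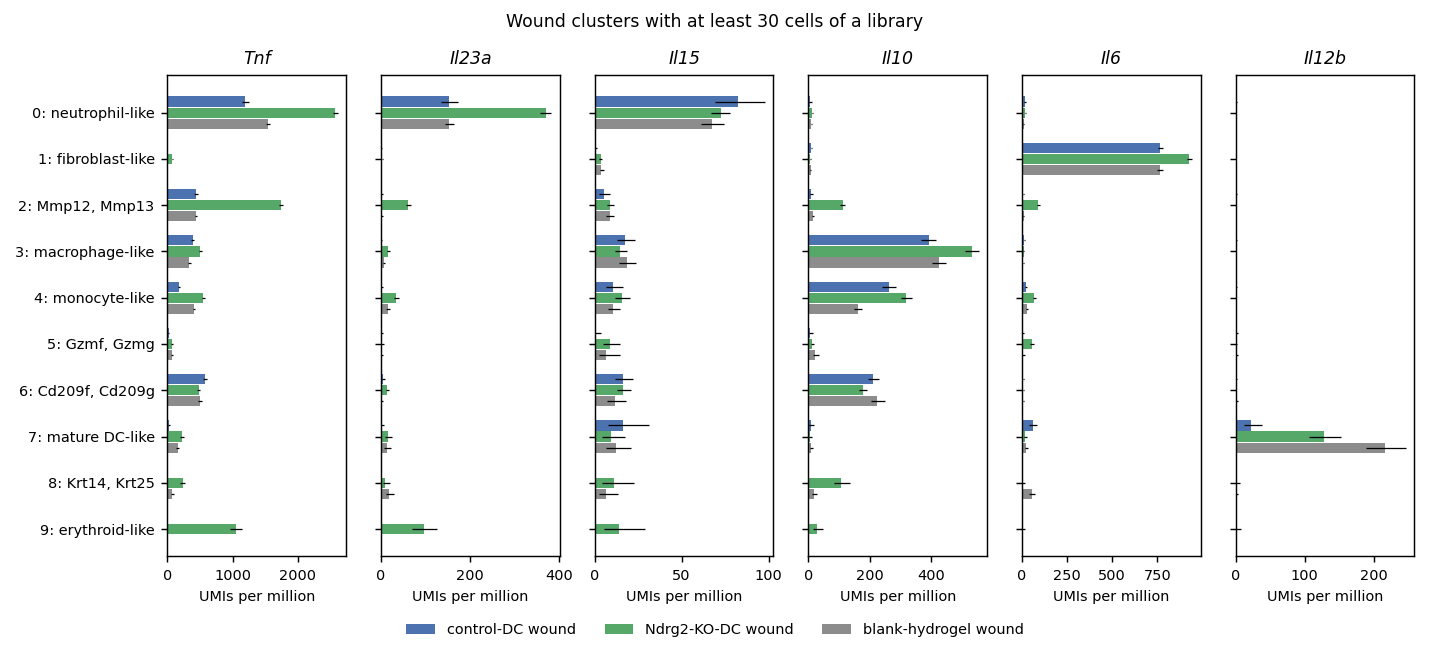
Levels in CPM of Tnf, Il23a, Il15, Il10, Il6 and Il12b in each wound cluster, with bars by library where it had at least 30 cells. Neutrophil-like cells held most Il23a (153, 371 and 153 CPM with control DCs, with Ndrg2-KO DCs and blank), fibroblast-like cells most Il6 (765, 927 and 763 CPM).

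Il6, an inflammatory cytokine of stromal and myeloid cells, stood at 3.35 CPM [3.04 to 3.68] in untreated, 2.73 [2.44 to 3.05] in VD3 and 1.06 [0.897 to 1.24] in Ndrg2-KO DCs. The intervals of untreated and VD3 DCs overlapped at their edges, and Ndrg2-KO DCs were lowest. The log2 ratio of VD3 to untreated DCs was −0.29 [−0.51 to −0.08], a small difference with VD3 DCs lower. Ndrg2-KO DCs were 3.16-fold below untreated DCs, at −1.66 [−1.94 to −1.39], and at −2.37 among cells with under 5% mitochondrial UMIs. Against VD3 DCs the log2 ratio was −1.37 [−1.66 to −1.08] (2.58-fold), and −0.46 with each cell weighted equally. Thinned shares were 0.811%, 0.456% and 0.281% (4.38%, 2.27% and 1.66% at full depth) in untreated, VD3 and Ndrg2-KO DCs.

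By state, the order of Il6 changed. Mature DC-like cells had 6.90 CPM in untreated, 1.35 in VD3 and 4.01 in Ndrg2-KO DCs, so that VD3 and not Ndrg2-KO DCs had the lowest mature cells. The log2 ratio within this state was −2.35 for VD3 and −0.78 for Ndrg2-KO against untreated DCs. Mature cells held 64.9% of Il6 UMIs in untreated and 67.1% in Ndrg2-KO DCs but 21.4% in VD3 DCs. Cells with at least 3 mature DC markers held 76.5% in untreated, 44.5% in VD3 and 84.2% in Ndrg2-KO DCs. Their levels were 6.02, 2.14 and 3.31 CPM. Basophil-like cells (Prss34, Mcpt8) had the highest Il6 of any named type, at 76.0 CPM [55.6 to 101] in 57 untreated and 63.4 CPM [46.4 to 84.5] in 77 VD3 cells, and were missing from Ndrg2-KO DCs, which had 1. They held 10.4% and 14.5% of the Il6 UMIs of those libraries, all from 13 and 8 cells. Prg3, an eosinophil and basophil granule gene, was among the 3 genes most like Il6 in DCs (r 0.820).

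In wounds Il6 was at 441 CPM [434 to 449] with control DCs, 309 [304 to 314] with Ndrg2-KO DCs and 256 [250 to 261] in blank wounds. It was the sole member that was lower in both comparisons, and no intervals overlapped. The log2 ratio was −0.51 [−0.55 to −0.48] with Ndrg2-KO DCs and −0.79 [−0.83 to −0.75] in blank wounds, reaching −1.05 and −1.30 with each cell weighted equally. Fibroblast-like cells (Col1a1, Dcn, Pdgfra) held 93.1%, 90.2% and 95.7% of its UMIs. Within them Il6 was at 765 CPM with control DCs, 927 with Ndrg2-KO DCs and 763 in blank wounds, and thinned shares were 33.3%, 37.6% and 30.3%, against 1.99%, 1.05% and 1.11% in neutrophil-like cells. The difference over all cells was therefore not seen within fibroblast-like cells, which made up 26.7%, 10.0% and 11.3% of the cells and 53.7%, 30.1% and 32.1% of the UMIs. Endothelial-like cells had Il6 at 1179, 374 and 148 CPM, but from only 27, 18 and 10 cells. Cluster 2 again stood out with Ndrg2-KO DCs, at 91.1 CPM of Il6 against 6.0 with control DCs and 10.5 in blank wounds.

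Il15, which sustains NK cells and CD8 T cells, stood at 15.4 CPM [14.7 to 16.1] in untreated, 32.1 [31.1 to 33.1] in VD3 and 15.8 [15.2 to 16.5] in Ndrg2-KO DCs. Untreated and Ndrg2-KO DCs overlapped and VD3 DCs were well above them. VD3 against untreated DCs gave a log2 ratio of 1.06 [0.98 to 1.14], or 2.09-fold, and 0.64 with each cell weighted equally. Ndrg2-KO against untreated DCs gave 0.04 [−0.05 to 0.13]. Ndrg2-KO against VD3 DCs gave −1.02 [−1.09 to −0.94] (2.03-fold lower), which fell short of 2-fold at −0.51 with equal cell weights and at −0.93 over all deposited barcodes. Il15 was therefore highest in VD3 DCs, by a difference close to 2-fold.

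Mature DC-like cells held 78.3% of Il15 UMIs in untreated, 76.9% in VD3 and 47.0% in Ndrg2-KO DCs. Their level was 38.3 CPM in untreated, 57.1 in VD3 and 42 in Ndrg2-KO cells. The excess under VD3 was present within the mature state, with a log2 ratio of 0.58 to untreated cells. Over all cells, thinned shares were 3.42%, 6.04% and 3.85% (20.2%, 26.8% and 22.2% at full depth), and cluster 4 as the reference had Il15 in 0.909% of untreated and 1.97% of VD3 cells. Of Il12b-positive cells 11.9% in untreated, 10.2% in VD3 and 14.8% in Ndrg2-KO DCs had Il15, where mature DC-like cells as a whole had it in 7.62%, 10.6% and 9%. In VD3 DCs Il15 was therefore no more frequent with Il12b than in the mature state. Rab9 (r 0.950), Dnajc12 (0.946) and AW112010 (0.946) were the DC genes most like it.

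Wound Il15 was at 9.60 CPM [8.52 to 10.8] with control DCs, 21.6 [20.3 to 23.0] with Ndrg2-KO DCs and 18.3 [16.9 to 19.8] in blank wounds. No intervals overlapped, with control DCs lowest. The log2 ratio was 1.17 [0.98 to 1.36] (2.25-fold) with Ndrg2-KO DCs and 0.93 [0.72 to 1.13] in blank wounds. The former fell to 0.72 with each cell weighted equally and to 0.76 without neutrophil-like cells, whose Il15 was 82.7, 72.4 and 67.6 CPM and so no higher with Ndrg2-KO DCs. Blank wounds stood at 0.62 without them. Neutrophil-like cells held 47.4%, 66.4% and 62.5% of Il15 UMIs. Cluster 2 and macrophage-like cells still held more neutrophil marker RNA with Ndrg2-KO than with control DCs. Its part in the Il15 difference outside neutrophil-like cells was not tested. Positive cells had S100a8 in 67.3%, 91.3% and 85.6% of cases, where other cells had it in 25.7%, 59.4% and 50.8%.

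Tnf, encoding the inflammatory cytokine TNF, gave the largest DC difference of the members compared. It was at 35.1 CPM [34.1 to 36.2] in untreated, 42.3 [41.1 to 43.5] in VD3 and 3.46 [3.16 to 3.78] in Ndrg2-KO DCs, from 4658, 4929 and 497 UMIs. VD3 DCs were highest and Ndrg2-KO DCs by far lowest, without overlap. The log2 ratio of Ndrg2-KO to untreated DCs was −3.34 [−3.48 to −3.21], a 10.2-fold fall, and −2.70 among cells with under 5% mitochondrial UMIs. Against VD3 DCs it was −3.61 [−3.75 to −3.48] (12.2-fold). VD3 against untreated DCs gave only 0.27 [0.21 to 0.33].

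Most Tnf in DCs came from other cells than most Il12b. Mature DC-like cells held 1.20% of Tnf UMIs in untreated, 1.77% in VD3 and 1.01% in Ndrg2-KO DCs, at 1.34, 1.73 and 0.196 CPM. In the grouping by markers, cells with at least 3 mature DC markers held more, at 13.7%, 18.0% and 9.09% of Tnf UMIs. Cluster 5, with Ms4a3, Elane and Prtn3, held 58.5% of Tnf UMIs of untreated DCs at 48.2 CPM. Tnf was densest in cluster 4, at 118 CPM [108 to 128] among untreated and 177 CPM [164 to 190] among VD3 DCs, where 20.6% and 24% of thinned cells had it and 0 basophil-like cells did. In VD3 DCs macrophage-like cells (cluster 7) followed, at 95 CPM. The clusters of Ndrg2-KO DCs stayed low, at 3.52 CPM in premature DC-like cells, 5.01 in the proliferating-like cluster 10 and 10.5 in cluster 11. The 129 Ndrg2-KO cells that fell in cluster 5 had 8.22 CPM [4.79 to 13.2], well below the untreated cells of the same cluster. Within cluster 5, Tnf was thus lower in edited than in untreated cells, whereas the mature state held only 5 Tnf UMIs in Ndrg2-KO DCs and is not read.

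Thinned shares of Tnf were 5.85% in untreated, 7.44% in VD3 and 0.613% in Ndrg2-KO DCs (27.2%, 21.3% and 4.77% at full depth). Tnf-positive cells had Ccr7 in 5.54%, 8.41% and 10.4% of cases, where other cells had it in 40.2%, 48.7% and 24.5%. They had S100a8 in 48.6%, 50.8% and 31.2%, where other cells had it in 24.8%, 20.6% and 8.80%. Neutrophil markers fell in the same library, with a sum of 5106 CPM in untreated, 5939 in VD3 and 392 in Ndrg2-KO DCs (S100a8 the most abundant), and 5 of 7 lower and 2 higher than in untreated DCs. Premature DC markers summed to 9976, 4195 and 28330 CPM (Lyz2 the most abundant), with 4 of 8 higher and 2 lower (Cd34 and Chil3) than in untreated DCs. Of all genes, 9.28% were lower and 10.2% higher in Ndrg2-KO than in untreated DCs. The part of cells with these markers in the fall of Tnf was not tested. The DC genes most like Tnf were the immediate-early genes Egr3 (r 0.921) and Fos (0.908), with Exoc3 (0.906).

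In wounds Tnf ran the other way, at 199 CPM [194 to 204] with control DCs, 973 [964 to 981] with Ndrg2-KO DCs and 446 [439 to 453] in blank wounds. No intervals overlapped. The log2 ratio to control DCs was 2.29 [2.25 to 2.33] (4.90-fold) with Ndrg2-KO DCs. Blank wounds were at 1.17 [1.12 to 1.21] (2.25-fold), and at 0.66 without neutrophil-like cells. Thinned shares were 16.7%, 36.5% and 28.5%, and full shares 39.8%, 60.5% and 57.0%.

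Neutrophil-like cells held 33.1% of Tnf UMIs with control DCs, 52.6% with Ndrg2-KO DCs and 58.6% in blank wounds, at 1196, 2579 and 1547 CPM. Over the 3 wound libraries this was 52.3% of Tnf UMIs, and 28.9% for the leading cluster at resolution 1.0. Cluster 2 went from 440 CPM with control DCs to 1746 with Ndrg2-KO DCs and 434 in blank wounds, with thinned shares of 20.4%, 53.0% and 24.8%. Macrophage-like cells changed less, at 387, 503 and 336 CPM, and cluster 6 not upward, at 584, 479 and 498 CPM. Monocyte-like cells went from 177 CPM with control DCs to 554 with Ndrg2-KO DCs and 411 in blank wounds. Mature DC-like cells, of which there were few, went from 23.9 to 224 and 156 CPM. Of their Tnf UMIs with Ndrg2-KO DCs, the top 10 cells held 94.0%. Their neutrophil markers also went from 714 to 4735 and 3844 CPM, and the part of stray RNA in their Tnf was not tested. Tnf was thus higher with Ndrg2-KO than with control DCs in neutrophil-like and monocyte-like cells and in cluster 2. It was higher by less in macrophage-like cells, and not higher in cluster 6. No order is read from the few mature DC-like cells. Without the neutrophil-like cluster Tnf stood at 140, 575 and 222 CPM, a log2 ratio of 2.03 for Ndrg2-KO DCs. Clec4d (r 0.934), Hk3 (0.923) and Ccl3 (0.919) were the wound genes most like Tnf.

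Stray Tnf was gauged in fibroblast-like cells, which had 3.51 CPM with control DCs, 78.0 with Ndrg2-KO DCs and 11.3 in blank wounds, and 0.194%, 3.81% and 0.798% of thinned cells. Their median depths were 28996.5, 26013 and 27845 UMIs, against 3281, 2927 and 3359 UMIs in neutrophil-like cells. The top 10 cells held 73.7% of fibroblast-like Tnf UMIs with Ndrg2-KO DCs. Per 100 UMIs of S100a9 there were 21.0 Tnf UMIs in these fibroblast-like cells and 4.24 in neutrophil-like cells of the same wounds, while cluster 2 had 82.0. The ratio of Tnf to S100a9 was thus not the same between cell groups, and the part of stray RNA in Tnf of cluster 2 was not tested.

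**Figure D4:**
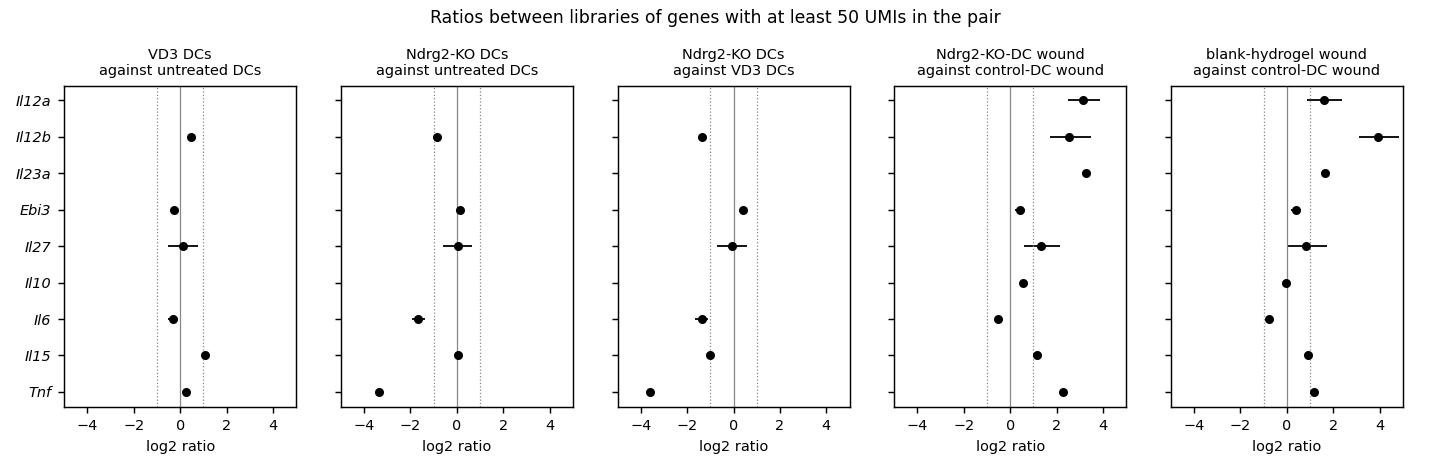
Log2 ratio of each member in the 5 comparisons with 95% counting intervals, and dotted lines at 2-fold. Tnf was −3.34 in Ndrg2-KO against untreated DCs but 2.29 in wounds with Ndrg2-KO against control DCs.

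Genes that receive, transmit or switch off these cytokines were read as lists. Of 12 receptor genes none passed 2-fold under VD3, and Ndrg2-KO against untreated DCs had 1 higher (Il27ra, log2 1.65) and 2 lower, Il12rb1 and Il15ra (−1.06), beside 10.2% of all genes higher and 9.28% lower. Among 11 signaling genes 4 fell at least 2-fold from untreated to Ndrg2-KO DCs, Stat4 (−2.04), Stat5a (−1.04), Socs1 (−1.50) and Socs3 (−1.39), and none was higher (list median −0.45). There too, 9.28% of all genes were lower and 10.2% higher. Among 14 transcription factors, 1 was higher under VD3, Irf8 (log2 1.21), and none lower, beside 4.18% of all genes higher and 7.44% lower. After editing 3 were lower, Rel (−1.07), Nfkb2 (−1.04) and Relb (−1.01), and 1 higher, Maf (2.10). Of all genes, 9.28% were lower and 10.2% higher there.

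Feedback genes of NF-κB and TNF made up another list. Under VD3 1 of 8 was higher, Zfp36 (1.04), with a list median of 0.26, beside 4.18% of all genes. In Ndrg2-KO against untreated DCs 3 of 8 were lower, Nfkbie (−1.29), Nfkbiz (−2.37) and Traf1 (−1.05), with a list median of −0.73, beside 9.28% of all genes lower. In wounds with Ndrg2-KO DCs 3 of 8 were higher, Nfkbia (1.10), Nfkbie (1.0) and Traf1 (1.74), with a list median of 0.88, beside 4.39% of all genes higher. In blank wounds Traf1 alone passed 2-fold (1.05), beside 3.71% of all genes higher. Nfkbiz stood at 9.16 CPM in untreated, 18.2 in VD3 and 1.78 in Ndrg2-KO DCs. Of 8 related cytokines, 1 was higher under VD3 (Lif) and 2 lower (Lta and Clcf1), beside 4.18% of all genes higher and 7.44% lower. After editing, 2 were higher than in untreated DCs, Clcf1 (1.05) and Il2 (1.29), and 2 lower, Lta (−5.09) and Ltb (−3.35). There, 10.2% of all genes were higher and 9.28% lower. In wounds with Ndrg2-KO DCs 1 of 9 was higher, Osm (1.21), and 1 lower, Il11 (−1.02), beside 4.39% of all genes higher and 6.22% lower. Blank wounds had Ltb higher (1.33) and Il22 lower, of 8, beside 3.71% of all genes higher and 3.89% lower.

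In the wounds, Il12rb2, a signaling chain for IL-12, was highest in cluster 5 (granzyme genes, Il17a, Il22 and T cell markers), at 77.4 CPM with control DCs, 51.6 with Ndrg2-KO DCs and 26.4 in blank wounds. Il17a of the same cluster was at 294, 263 and 194 CPM. Il22 in cluster 5 stood at 336 CPM with control DCs and 246 CPM with Ndrg2-KO DCs but had 0 UMIs in the 129 blank cells. Over whole libraries Il22 had 346 UMIs with control DCs and 2 in blank wounds. Fewer than 3 UMIs cannot be told from none, so no exact ratio is given. The order of Il17a and Il22 in cluster 5 was therefore not that of Il23a: wounds with control DCs had the least Il23a, but blank wounds the least of both. No order of wounds with control and with Ndrg2-KO DCs is read for Il17a. Tnfrsf1b, a TNF receptor gene, was at 156, 322 and 315 CPM and 2-fold higher in both comparisons (log2 1.05 and 1.02).

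RefSeq promoter entries of GRCm38.p6 were matched for 5 of 9 members, Il12a, Il12b, Ebi3, Il6 and Tnf. They are shown for 3 members that were lower in Ndrg2-KO than in VD3 DCs, and a κB-like match (GGANNTTCC on both strands) is in capitals. It was found in 1178 of 32851 promoters (3.59%). Tnf (chr17:35202008-35202257, minus strand) had GGAGATTCC and Il6 (chr5:30012864-30013113, plus strand) GGATTTTCC, whereas Il12b (chr11:44399813-44400062, plus strand) had none in this window. Il12a (chr3:68690394-68690643, plus strand) also held a match, but its other entry (chr3:68691174-68691423, plus strand) held none. Ebi3, which was not lower in Ndrg2-KO DCs, held none either. AP-1 (TGANTCA) and C/EBP-like (TTGCNNAA) letters, present in 6.75% and 9.56% of promoters, were found in Il6 alone, and an ISRE core (GAAANNGAA, in 7.13%) in none of the 5. A match is a description and not a site of binding. A window without a match can hold other forms of these sites, which fixed letters miss, so no lack of a site is read.
Tnf: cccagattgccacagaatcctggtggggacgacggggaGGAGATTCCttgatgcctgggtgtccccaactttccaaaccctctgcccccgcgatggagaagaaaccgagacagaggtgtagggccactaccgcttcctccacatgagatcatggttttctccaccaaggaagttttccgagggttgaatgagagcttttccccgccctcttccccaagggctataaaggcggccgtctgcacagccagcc
Il6: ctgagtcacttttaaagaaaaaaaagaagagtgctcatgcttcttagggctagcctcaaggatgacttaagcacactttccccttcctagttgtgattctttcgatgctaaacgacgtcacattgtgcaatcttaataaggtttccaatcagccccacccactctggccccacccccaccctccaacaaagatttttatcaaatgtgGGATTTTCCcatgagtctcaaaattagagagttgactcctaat
Il12b: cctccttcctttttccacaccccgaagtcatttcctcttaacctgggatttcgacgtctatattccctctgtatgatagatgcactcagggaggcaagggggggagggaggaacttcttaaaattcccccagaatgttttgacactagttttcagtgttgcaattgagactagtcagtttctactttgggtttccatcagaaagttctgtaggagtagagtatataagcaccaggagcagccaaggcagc

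Each member was measured at the 3′ end of its transcripts, and levels were not ranked between genes. Ebi3 overlaps the antisense gene Gm16712, and Il27 overlaps Apobr on the opposite strand. With 1 library per condition, differences between mice or cultures cannot be told apart from those between treatments. Transplanted and host cells were not told apart in the wounds.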

How the data were processed

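The authors deposited filtered UMI count matrices from 10x Cell Ranger (version 3.1.0 in the DC file headers, 6.0.0 in the wound files) on the mouse genome, and these deposited counts were used as they were. Cells were kept at 300 or more genes, under 100000 UMIs and under 10% mitochondrial UMIs, after the study's thresholds, except that the study counted at least 300 unique transcripts in place of genes, which was run as an alternative. All 9 members were reported in every library, with summed UMIs per 1000000 and exact 95% Poisson intervals for levels, and conditional binomial intervals for log2 ratios. Genes outside the members were named where they belonged to a fixed list and passed 2-fold, marked a cluster, or were among the 3 most correlated with a member. Shares of cells were compared after thinning to 2000 UMIs in DCs and 1000 in wounds. A member with 0 UMIs was given a floor of 3 UMIs. Clusters used 2000 variable genes without the members, 15 principal components, 15 neighbours and resolution 0.5 in Seurat 5.3.0, for DCs and wounds separately and without integration. A cluster was named where at least 3 markers of a type reached 50 CPM and 2-fold over the other cells, and its leading 10 genes held a marker of that type and no more markers of another type. The automatic threshold of Scrublet marked at most 0.873% of cells in a library, so doublets were kept, and an alternative left out the 6% of cells with the highest score. The members and lists were chosen with earlier results of these data known. Leaving out the neutrophil-like cluster, DC clusters 3 and 4, or the cell with the most UMIs were alternatives chosen after seeing the data. Promoter sequences were from RefSeq and gene positions from the GENCODE annotation of GRCm38. Python 3.11.15, NumPy 2.4.6, pandas 2.3.3, SciPy 1.17.1, scanpy 1.11.5, R 4.3.3 and Matrix 1.6.5 were used.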

Additional observations from a re-analysis of the deposited data

How the results depend on the processing

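Of 324 log2 ratios of members under other choices of cells, totals and weights, 246 stayed within the interval of the value reported, 78 moved, and none past 2-fold changed sign. Small ratios changed sign 13 times, over 8 results. Ratios past 2-fold stayed past it in 141 of 153 alternative values and fell short in 12. The number of members past 2-fold was within 1.5-fold of the reported number in 50 of 55 alternatives. For VD3 against untreated DCs it went from 1 to 0 with each cell weighted equally and to 0 at a 3-fold threshold. For Ndrg2-KO against VD3 DCs it went from 4 to 1 with each cell weighted equally and to 1 at 3-fold, Tnf being the member left. For blank wounds against wounds with control DCs it went from 4 to 7 at 1.5-fold, with 6 higher and 1 lower. With each cell weighted equally, the wound counts held 4 higher and 1 lower with Ndrg2-KO DCs in place of 6 higher, and 2 higher and 1 lower in blank wounds in place of 4 higher. The lower and higher thresholds change the count by construction, and for the cell weights the cause was not tested. Shares of cells depended on depth, with 27 of 162 within their interval at other depths. The share of cells with both subunits, at or near 0, was within its interval in 61 of 72. The share of UMIs in the leading cell type was within its interval in 10 of 45 alternative clusterings, and in 0 of 15 where mature cells were taken by markers.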
